A study of Mus musculus with 2 samples.

Results

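A set of 10 genes of adipocytes and of lipid handling were followed through the skin of the MC903 model of atopic dermatitis (AD). They were, out of 33904 in the deposited matrices, *Adipoq*, *Plin1*, *Cidec*, *Lep*, *Pparg*, *Cebpa*, *Lpl*, *Fabp4*, *Cd36* and *Apoe*. The genes were chosen by symbol, and each symbol matched 1 gene identifier in each library. Single-cell RNA-seq with 10x 3′ chemistry was performed on dorsal skin of female C57BL/6J mice, aged 7 weeks and depilated 24 hours before the first application, with 1 Ctrl and 1 AD library. The AD group received 4.5 nmol of MC903, a vitamin D analogue also known as calcipotriol, per application in 100% ethanol, and the Ctrl group received 100% ethanol, each once a day on an area of 2 cm by 2 cm for 10 days. The sources used here do not state how many mice were behind a library. The labels give no genetic change for either group.

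Adipocytes store fatty acids as triglyceride in a lipid droplet, and in mouse skin they form the dermal white adipose layer beneath the reticular dermis. PPARγ, encoded by *Pparg*, and C/EBPα, encoded by *Cebpa*, are the transcription factors that together establish and maintain the adipocyte state. Lipoprotein lipase (*Lpl*) releases fatty acids from circulating triglyceride, CD36 takes them up at the cell surface, and FABP4 carries them in the cytoplasm of adipocytes and capillary endothelium. Perilipin 1 (*Plin1*) and CIDEC coat the lipid droplet, adiponectin (*Adipoq*) and leptin (*Lep*) are hormones secreted by adipocytes, and apolipoprotein E (*Apoe*) carries lipid out of macrophages and many other cells.

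The libraries held 12598 barcodes in Ctrl and 8778 in AD, of which 11399 and 8179 remained after a filter on detected genes (200 to 6000) and on mitochondrial UMIs (10% or less). The kept cells had medians of 7813 UMIs (distinct transcript molecules) in Ctrl and 6330 in AD, and 29 barcode sequences occurred in both libraries. Cells were clustered without the 10 genes, and clusters were named from marker lists that also left them out. Levels are CPM, the summed UMIs of a gene per 1000000 UMIs of a cell class in 1 library. With 1 library per condition there was no replicate spread and no test was possible, so 95% intervals, exact Poisson for CPM and exact Clopper-Pearson for shares of cells, cover counting error only. Doublet detection by Scrublet marked 3.47% of the Ctrl cells but 0 of 8179 AD cells, so doublets of the AD library were effectively not marked. A difference between libraries can be a difference of mice, dissociation or treatment, and these cannot be told apart.

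Adipocyte-like cells, called adipocytes from here on, formed 1 cluster of 150 AD cells and 1 Ctrl cell. They made up 1.83% of AD cells and 3.76% of AD UMIs, and in Ctrl 0.00877% of cells. The cluster passed 14 adipocyte markers that were not among the 10 genes, including *Car3* at 2116 CPM, *Retn* (resistin) at 1235 CPM and *Mrap* at 758 CPM. Markers of other lineages were mostly low there, with 7 of blood endothelium at up to 4.75 CPM, 7 of T cells at up to 1.73 CPM and 8 of keratinocytes at up to 10.8 CPM (*Krt14*). Of 7 macrophage markers *Cd68* was at 42.8 CPM, against 268 CPM in AD macrophages, and the other 6 were at up to 4.32 CPM, with *Mrc1* at 0. The fibroblast gene *Dcn* was at 389 CPM, against 8407 CPM in AD dermal fibroblasts (dFBs). Adipocytes were deep, with a median of 16239.5 UMIs per cell and a range of 525 to 42258. Without the filter on barcodes the cluster held 174 AD and 4 Ctrl cells. How well buoyant, fragile adipocytes survived dissociation in each library was not tested.

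The secreted hormones differed widely within the AD adipocytes. *Adipoq* had 1258 UMIs, or 543 CPM (514 to 574), in 66.0% of the 150 cells. The median cell held 3 *Adipoq* UMIs and the highest held 55, and the top 15 cells held 44.7% of the gene's UMIs. *Lep* was sparse, with 54 UMIs, 23.3 CPM (17.5 to 30.4), in 11.3% of the cells and at most 8 UMIs in a cell. The 2 hormones were thus at different detection levels in the same cells. After thinning to 1000 UMIs per cell, which kept 133 cells and left out 17 that were too shallow, a UMI of *Adipoq* was found in 35.3% and of *Lep* in 1.5%.

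The droplet proteins followed the same cluster. *Cidec*, whose protein enlarges droplets by fusing them, was at 1392 CPM (1344 to 1441) in 88.0% of adipocytes, with a median of 12.5 UMIs per cell. *Plin1*, whose protein guards the droplet against lipases, was at 117 CPM (104 to 132) in 33.3% of them, and its median cell held 0 UMIs. A UMI of all of *Adipoq*, *Plin1* and *Cidec* was found in 47 of the 150 cells and none of them in 14.

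*Pparg* was at 203 CPM (185 to 222) in 70.0% of adipocytes and *Cebpa* at 82.5 CPM (71.2 to 95.1) in 46.7%. *Lpl* was at 3278 CPM in 94.0% of the cells, *Fabp4* at 8106 CPM in 87.3%, *Cd36* at 414 CPM in 63.3% and *Apoe* at 9482 CPM in all 150. The spread between cells was wide, since *Fabp4* ranged from 0 to 1412 UMIs with a median of 46.5 and *Apoe* from 2 to 667 with a median of 108.5. The median adipocyte held a UMI of 7 of the 10 genes, and 8 cells held all of them.

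**Figure D1:**
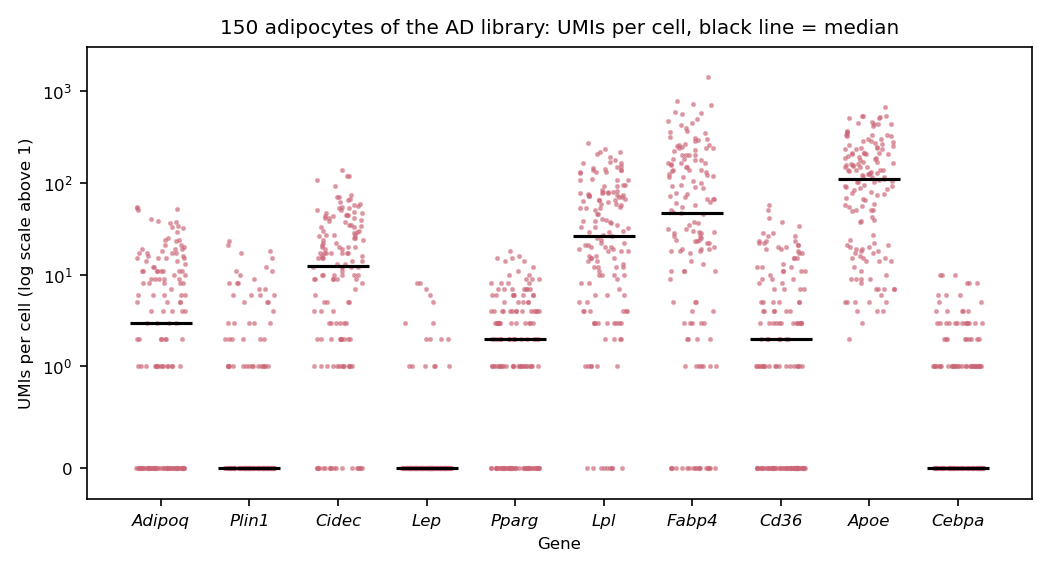
UMIs of each of the 10 genes (x axis) in each of the 150 AD adipocytes (points; y axis in UMIs per cell, logarithmic above 1), with the median as a black line. The medians run from 0 UMIs for *Plin1*, *Lep* and *Cebpa* to 108.5 for *Apoe*.

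The single Ctrl cell of the cluster had 16352 UMIs. It held 40 UMIs of *Adipoq*, 9 of *Plin1*, 17 of *Cidec*, 319 of *Fabp4*, 71 of *Lpl*, 17 of *Cd36*, 87 of *Apoe*, 7 of *Pparg*, 9 of *Cebpa* and 0 of *Lep*. It thus carried 9 of the 10 genes, and 455 UMIs of the adipocyte markers, but 1 cell gives no Ctrl level, and no AD to Ctrl ratio is given for adipocytes.

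The genes fell into groups by where their UMIs lay in the AD library. Adipocytes held all 54 UMIs of *Lep*, 98.2% of those of *Plin1*, 95.3% of *Cidec* and 95.2% of *Adipoq*. They held 52.1% of the *Fabp4* UMIs, 48.8% of *Cd36* and 46.3% of *Pparg*, and the rest lay mainly in vessels and dFBs, for *Cd36* also in macrophages and for *Pparg* also in keratinocytes. Shares were lower still for *Apoe* (18.8%), *Lpl* (15.1%) and *Cebpa* (11.1%), and 78.8% of the *Lpl* UMIs lay in dFBs, which were 66.8% of AD cells. Summed over all kept cells, *Adipoq* went from 0.513 in Ctrl to 21.4 CPM in AD and *Cidec* from 0.475 to 54.9 CPM.

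**Figure D2:**
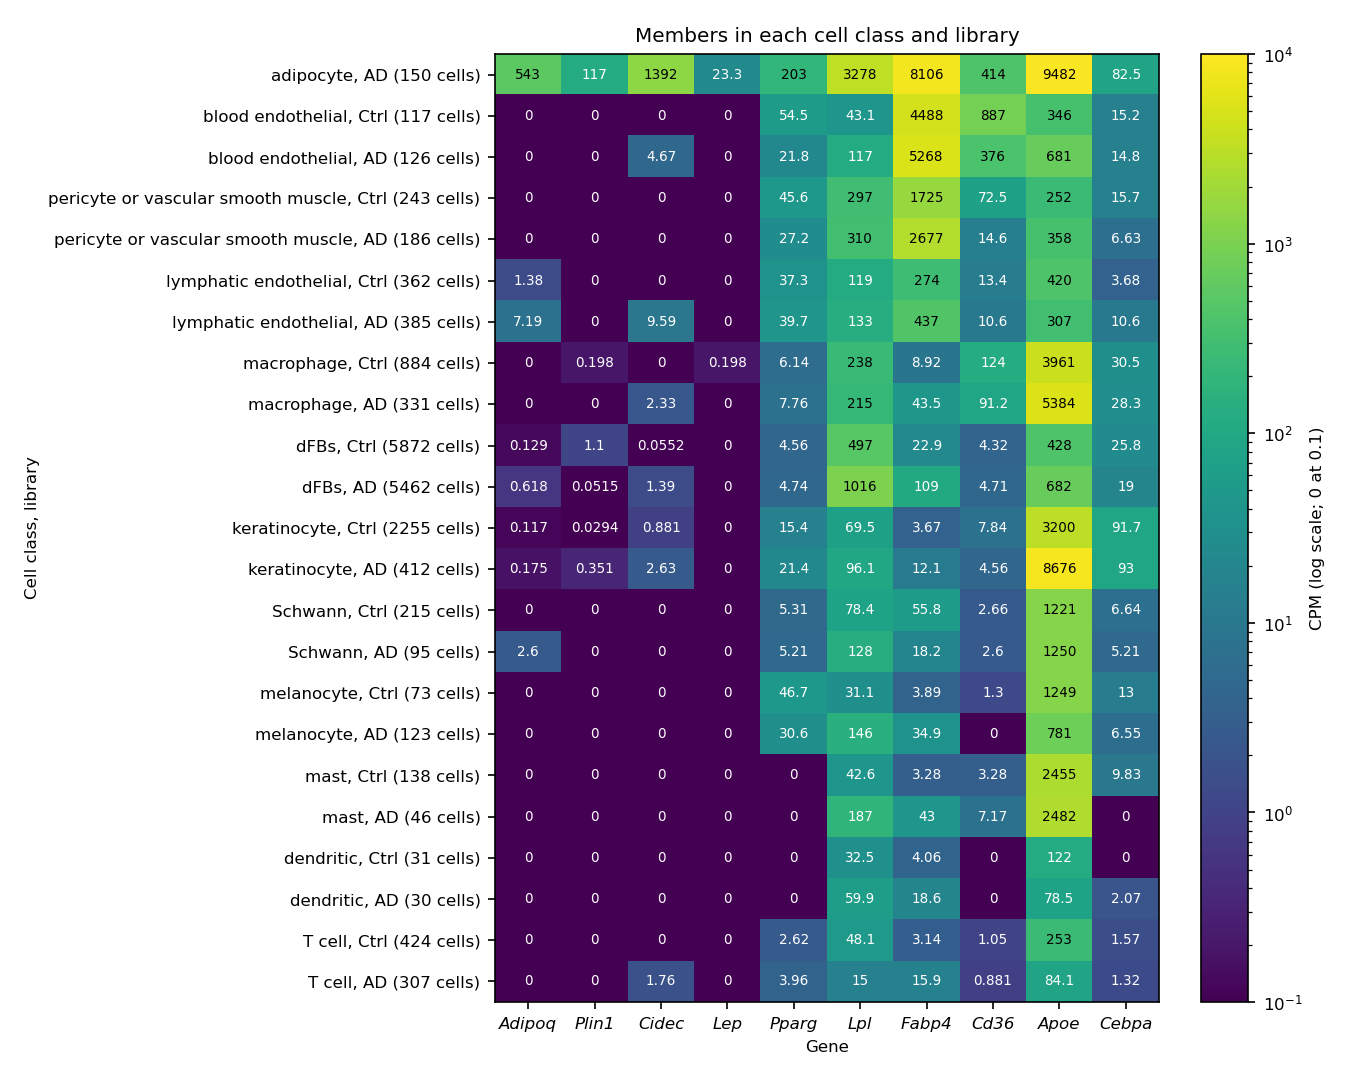
CPM of the 10 genes (x axis) in each cell class and library (y axis) as colour on a log scale. *Adipoq*, *Plin1*, *Cidec* and *Lep* are highest in the AD adipocyte row, whereas *Fabp4*, *Cd36*, *Pparg*, *Lpl*, *Apoe* and *Cebpa* have levels in several other rows.

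Upstream sequences are shown for the 4 genes with at least 95.2% of their AD UMIs in adipocytes, because these genes shared 1 pattern. RefSeq (GRCm38.p6) gave upstream windows for 8 of the 10 genes, 13 windows in all, and *Lpl* and *Fabp4* are named only. Each window is the 250 bases before a RefSeq start site, written 5′ to 3′ on the strand of the gene. Searched on both strands were TTGCNNAA, a C/EBP core, CCAAT, the CCAAT box, AGGTCA, a nuclear receptor half-site, and TATAAA, the TATA box, and capitals mark their matches. *Adipoq* lies on the plus strand of chromosome 16 (gene 23146536 to 23158028, window chr16:23146286-23146535), *Plin1* on the minus strand of chromosome 7 (79720218 to 79732903, window chr7:79732777-79733026), *Cidec* on the minus strand of chromosome 6 (113424634 to 113435760, window of its second start chr6:113434765-113435014) and *Lep* on the plus strand of chromosome 6 (29060220 to 29073877, window chr6:29059971-29060220). Gene positions are those of GENCODE M21 on GRCm38.
Adipoq: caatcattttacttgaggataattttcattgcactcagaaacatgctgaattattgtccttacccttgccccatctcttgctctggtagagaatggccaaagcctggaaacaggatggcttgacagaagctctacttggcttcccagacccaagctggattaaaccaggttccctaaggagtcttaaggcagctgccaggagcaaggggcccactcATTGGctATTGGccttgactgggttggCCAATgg
Plin1: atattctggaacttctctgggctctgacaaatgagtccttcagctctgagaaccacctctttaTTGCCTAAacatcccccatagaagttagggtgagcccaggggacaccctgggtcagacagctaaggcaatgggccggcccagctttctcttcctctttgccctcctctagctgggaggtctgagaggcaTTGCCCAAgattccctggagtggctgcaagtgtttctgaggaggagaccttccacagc
Cidec: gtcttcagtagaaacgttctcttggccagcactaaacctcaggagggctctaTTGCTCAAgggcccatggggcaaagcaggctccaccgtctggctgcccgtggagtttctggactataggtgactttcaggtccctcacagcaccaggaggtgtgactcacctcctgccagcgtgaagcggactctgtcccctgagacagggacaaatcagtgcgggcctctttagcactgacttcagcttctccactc
Lep: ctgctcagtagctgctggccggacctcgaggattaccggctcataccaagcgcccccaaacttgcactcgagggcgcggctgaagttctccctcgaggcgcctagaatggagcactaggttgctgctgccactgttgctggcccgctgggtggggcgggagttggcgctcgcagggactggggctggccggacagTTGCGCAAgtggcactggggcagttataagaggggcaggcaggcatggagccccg
The *Adipoq* window held CCAAT 3 times, with matches 34 and 27 bases before the start on the minus strand and 7 bases before it on the plus strand. In *Plin1*, TTGCNNAA matched 187 and 58 bases before the start, in *Cidec* 198 bases before the second start (its first window held no match of any of these letters), and in *Lep* 55 bases before the start on both strands, being a palindrome there. Of the 13 windows 4, each of another gene, held TTGCNNAA, against 9.56% of all 32851 RefSeq windows of that length. CCAAT was held by 4 of the 13, AGGTCA by 3 and TATAAA by 3, against 33.8%, 14.0% and 12.4% of all windows. A match of letters is a description and does not show that a factor binds there.

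Adipocyte transcripts were then measured in cells that should lack them. Over all AD cells outside the adipocyte cluster, *Adipoq* had 63 UMIs in 42 of 8029 cells, or 1.06 CPM (0.816 to 1.36), which is 0.195% of its level in adipocytes. *Cidec* was at 0.193% of its adipocyte level there, and the markers *Retn*, *Mrap* and *Cfd* were at 0.211%, 0.162% and 0.169%. These 5 genes, chosen after their values were seen, stood at nearly one proportion, whereas other adipocyte markers ran from *Car3* at 0.142% to *Adrb3* at 2.37%. *Plin1* had 5 UMIs (0.0720%) and *Lep* had 0. In Ctrl, with 1 adipocyte, *Adipoq* outside the cluster was at 0.0245% and *Cidec* at 0.0225% of the AD adipocyte level, and *Mrap* at 0.00251%. *Plin1* was instead higher outside the cluster in Ctrl, with 62 UMIs (0.504%) in 16 cells, of which 1 cell held 25.

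**Figure D3:**
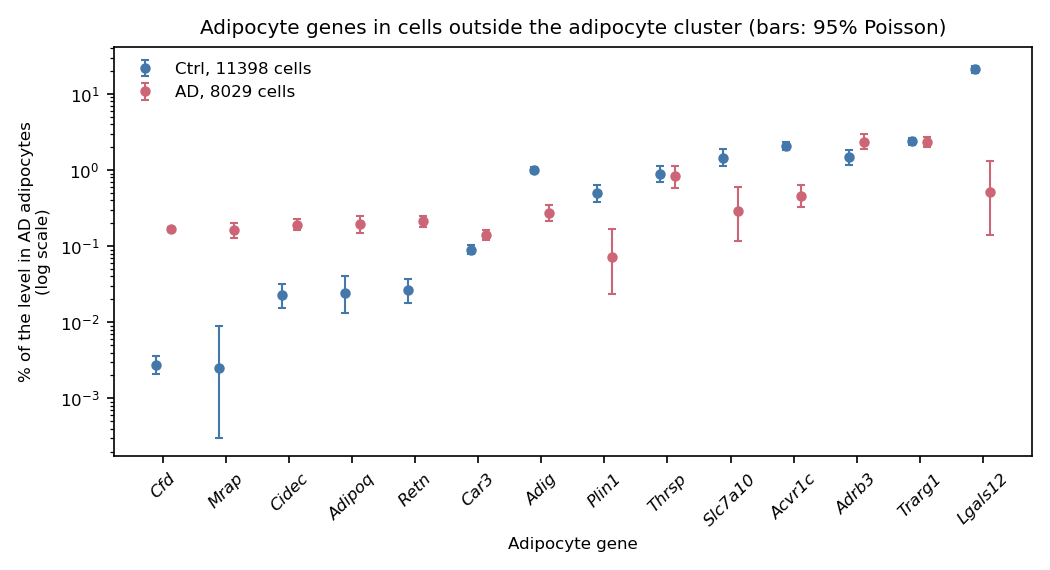
Level of adipocyte genes (x axis) in all cells outside the adipocyte cluster, as a percentage of the level in AD adipocytes (y axis, log scale), for Ctrl and AD, with 95% Poisson intervals as bars. In AD *Adipoq*, *Cidec*, *Retn*, *Mrap* and *Cfd* lie between 0.162% and 0.211%, and in Ctrl each of them lies lower, whereas *Plin1* and several other markers lie higher in Ctrl.

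The UMIs outside adipocytes were not spread evenly over the classes. AD T cells, which do not make adiponectin, had 0 UMIs of *Adipoq* among 307 cells, which allows up to 1.32 CPM, and 4 UMIs of *Cidec* in 4 cells (1.76 CPM). AD macrophages had 0 UMIs of *Adipoq*, which allows up to 1.16 CPM, and 6 of *Cidec*. AD dFBs had 24 *Adipoq* UMIs in 24 of 5462 cells (0.618 CPM) and 54 of *Cidec* (1.39 CPM). These classes had single UMIs scattered over many cells, with at most 2 in a cell. In contrast, AD basophils had *Adipoq* at 34.7 CPM and *Cidec* at 94.8 CPM, but 1 cell held 14 of the 15 *Adipoq* UMIs and 1 cell held 26 of the 41 *Cidec* UMIs. AD lymphatic endothelial cells had *Adipoq* at 7.19 CPM, in 13 of 385 cells, and *Cidec* at 9.59 CPM.

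A set of adipocyte markers other than the 10 genes gave an estimate of the part of each class's UMIs that matched adipocyte RNA. It was 0.0439% (0.0142 to 0.102) in AD T cells and 0.0521% in Ctrl T cells, 0.162% in AD macrophages and 0.146% in AD dFBs. Lymphatic endothelial cells of AD reached 1.34%, where 18 cells held 182 of the 196 marker UMIs, and AD basophils reached 3.32%, where 3 cells held 64 of the 72. The estimate depends on the markers, several of which had UMIs in non-adipocytes of Ctrl as well, where dFBs gave 0.246% and blood endothelial cells 1.69%. By *Adipoq*, *Plin1* and *Cidec* in place of the markers, these were 0.0627% and 0. Without *Car3* it was 0.220% in AD dFBs and 5.65% in AD basophils. In AD dFBs 0.146% corresponds to 11.8 CPM of *Fabp4* and 4.79 CPM of *Lpl*, or 10.9% and 0.472% of what was measured there.

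The dFBs numbered 5872 in Ctrl and 5462 in AD. Naming clusters against the 25th instead of the 10th percentile left 5841 and 2230 of them, with log2 ratios of 1.26 for *Lpl* and 2.50 for *Fabp4*. *Lpl* was at 497 CPM (491 to 503) in Ctrl and 1016 CPM (1006 to 1026) in AD, a log2 ratio of 1.03, and in 59.9% and 68.1% of the cells. *Fabp4* was at 22.9 CPM (21.7 to 24.2) in Ctrl and 109 CPM (106 to 112) in AD, a log2 ratio of 2.20. *Apoe* was at 428 and 682 CPM (log2 ratio 0.67) and *Cebpa* at 25.8 and 19.0 CPM (log2 ratio -0.42). The other 6 genes were under 10 CPM in both libraries, and *Pparg* in particular stood at 4.56 in Ctrl and 4.74 CPM in AD. Of the 4 genes that reached 10 CPM in Ctrl or AD, 2 were higher in AD by at least 2-fold and 0 lower, while over all 9200 such genes 7.03% were higher and 13.3% lower.

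*Fabp4* in dFBs lay both in cells with few UMIs and in a small number with many. It had 1 to 9 UMIs in 19.3% of AD dFBs and in 3.49% of Ctrl dFBs, while 99 AD cells and 24 Ctrl cells with 10 or more held 46.4% and 73.1% of the gene's UMIs. T cells differed too. *Fabp4* there was at 3.14 CPM in 1.42% of Ctrl cells (median 3412 UMIs) and 15.9 CPM in 10.1% of AD cells (median 6459 UMIs). An AD T cell held at most 5 of its UMIs. In dFBs 3.90% of Ctrl cells (median 8538 UMIs) and 21.1% of AD cells (median 6456.5 UMIs) had a UMI, and after thinning to 1000 UMIs the shares were 1.01% and 6.79% in dFBs and 0.483% and 2.30% in T cells. The level in AD dFBs was thus above that in AD T cells on each of these scales. From marker UMIs of the sources, at most 50.6 CPM of the 109 CPM in AD dFBs would match blood endothelial RNA and at most 6.76 CPM pericyte RNA. RNA matching adipocytes was estimated at 11.8 CPM (10.5 to 13.3). In Ctrl the upper limits were 34.5 and 8.65 CPM and the adipocyte estimate 19.9 CPM, together more than the 22.9 CPM measured. That estimate rests on the markers, which gave 0.246% in Ctrl dFBs. By *Adipoq*, *Plin1* and *Cidec* the part was lower, 0.0627% in Ctrl and 0.100% in AD dFBs. Ctrl dFBs held 7 UMIs of *Adipoq* and 3 of *Cidec*, so the 19.9 CPM may be too high. The part of free RNA in the *Fabp4* ratio was not tested beyond these limits and estimates.

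Most dFB clusters were made up of 1 library, so the dFB ratios set different clusters side by side. Ctrl dFBs lay mainly in clusters 0, 2, 5, 7 and 11 and AD dFBs in clusters 1, 3, 4, 6 and 9. Without the subsets found almost only in Ctrl, one marked by *Acta2*, *Lrrc15* and *Col11a1* (924 Ctrl and 8 AD cells) and one by *Wif1*, *Hhip* and *Rspo3* (626 Ctrl cells), the log2 ratio of *Lpl* was 0.67 and no longer reached 2-fold, and that of *Fabp4* was 1.81. The *Lpl* level in these subsets was 178 and 42.7 CPM, below the Ctrl dFB mean, and *Cebpa* in the *Wif1* subset was at 106 CPM (97.2 to 116), the highest of the named dFB subsets.

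Among the named dFB subsets with a ratio, the one named from *Grem1* and *Cyp26b1* had the largest log2 ratios of *Lpl*, *Fabp4* and *Cd36*. The unnamed dFBs had a larger one for *Fabp4*, 4.80 (4.42 CPM in Ctrl and 150 CPM in AD). Their log2 ratio was 1.25 for *Apoe* and 0.18 for *Lpl*. *Grem1* encodes a secreted BMP antagonist and *Cyp26b1* an enzyme that degrades retinoic acid. The *Grem1* and *Cyp26b1* subset was sub-cluster 0 in Ctrl (1351 cells) and sub-cluster 7 in AD (675 cells), with no cell shared between libraries in either. Sub-cluster 0 passed 4 markers of the subset and was led by *Dcn*, *Lum*, *Ccl19* and *Pi16*. Sub-cluster 7 passed 3, the least that gives a name, and was led by *Cpxm1*, *Tnc*, *Cyp26b1* and *Saa3*. Whether they hold the same kind of cell was not tested. *Lpl* was at 130 CPM (123 to 137) in 41.4% of the Ctrl cells and at 1597 CPM (1570 to 1625) in 85.9% of the AD cells, a log2 ratio of 3.61. *Fabp4* had 41 UMIs, 3.86 CPM, in Ctrl and 1074 UMIs, 129 CPM, in AD, a log2 ratio of 4.75. *Apoe* was at 444 and 1091 CPM (log2 ratio 1.29) and *Cd36* at 0.565 and 10.8 CPM (log2 ratio 2.92), where 1 AD cell held 33 of the 90 *Cd36* UMIs.

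The transcription factors differed from each other in that subset. *Cebpa* was at 17.6 in Ctrl and 17.1 CPM in AD. *Pparg* had 10 UMIs in Ctrl (0.941 CPM, 0.451 to 1.73) and 75 in AD (9.03 CPM, 7.10 to 11.3), in 0.740% and 9.63% of the cells, still below 10 CPM. *Adipoq*, *Plin1*, *Cidec* and *Lep* had 7, 2, 9 and 0 UMIs in the AD cells, and each cell had at most 1 UMI of each. The AD cells were deeper (medians of 11623 and 7422 UMIs), and after thinning to 1000 UMIs a *Lpl* UMI was found in 9.27% of Ctrl and 57.9% of AD cells. Of the 5 genes that reached 10 CPM, 4 were higher by at least 2-fold and 0 lower, against 9.94% and 11.9% of all genes in this subset. *Fabp4* (3.86 and 129 CPM) and *Cd36* (0.565 and 10.8 CPM) reached 10 CPM only in AD, so they could pass 2-fold only as higher. *Cd36* lay just above 10 CPM, with 33 of its 90 AD UMIs in 1 cell.

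Choosing cells by the transcripts themselves instead of by sub-cluster gave values of similar size. Among dFBs with a UMI of both *Grem1* and *Cyp26b1*, 709 in Ctrl and 310 in AD, *Lpl* was at 115 and 1231 CPM, *Fabp4* at 3.39 and 164 CPM, *Apoe* at 395 and 971 CPM and *Pparg* at 0.969 and 9.15 CPM. In dFBs with a UMI of neither, 2449 and 2975 cells, *Lpl* was at 767 in Ctrl and 771 CPM in AD, and *Pparg* at 7.52 and 2.39 CPM. *Lpl* thus differed between libraries in the cells with both transcripts, and in those with neither the levels were nearly equal. Cells with both were 12.1% of Ctrl and 5.68% of AD dFBs, and cells with neither 41.7% and 54.5%. Levels in the remaining dFBs, with a UMI of only 1 of the transcripts, are not given. The difference can therefore not be placed in the cells with both alone. *Fabp4* was at 34.8 and 85.5 CPM in the cells with neither.

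The subset named from *Dpp4* and other interstitial markers, which include *Pi16*, showed no difference of that size. Ctrl cells of this subset lay mainly in sub-clusters 1 and 5 and AD cells in sub-clusters 3 and 4. The next values are those of the whole subset. Its 2093 Ctrl and 1882 AD cells had *Lpl* at 873 and 855 CPM, *Fabp4* at 48.6 and 43.7 CPM, *Apoe* at 420 and 476 CPM and *Cebpa* at 16.3 and 16.7 CPM. None of these 4 genes passed 2-fold, against 10.1% of all genes higher and 15.1% lower in the subset. *Pparg* was at 7.81 in Ctrl and 1.78 CPM in AD, and *Cd36* at 8.84 and 0.697 CPM, all below 10 CPM. Although the *Fabp4* levels were similar, a UMI of it was found in 6.26% of Ctrl and 16.1% of AD cells, and 1 Ctrl cell held 218 of the 1082 Ctrl UMIs.

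The subset marked by *Fmo2*, *F3* and *Gdf10*, named Areg for adipogenesis-regulatory cells, had 127 Ctrl and 1496 AD cells. The 127 Ctrl cells shared sub-cluster 10 with 361 AD cells, and 1135 AD cells formed sub-cluster 2, with 0 Ctrl cells. Its ratios thus set largely different sub-clusters side by side. *Fabp4* was at 44.3 CPM (31.1 to 61.4) in Ctrl, with 30 of 36 UMIs in 1 cell, and at 178 CPM (171 to 186) in AD. *Apoe* went the other way, with 2406 CPM (2301 to 2515) in the Ctrl cells and 681 CPM (666 to 696) in the AD cells, or -1.82 as a log2 ratio. *Lpl* was at 808 and 1037 CPM, and *Cebpa* had 5 UMIs (6.16 CPM) and 209 UMIs (18.4 CPM). Of these 4 genes 2 were higher and 1 lower by at least 2-fold, against 10.9% and 11.5% of all genes. The AD subset marked by *Prdm1* and *Trps1* (peri-follicular papillary, 701 cells) had *Lpl* at 334 CPM and *Fabp4* at 33.1 CPM, the lowest of both genes among the named AD subsets with over 100 cells.

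**Figure D4:**
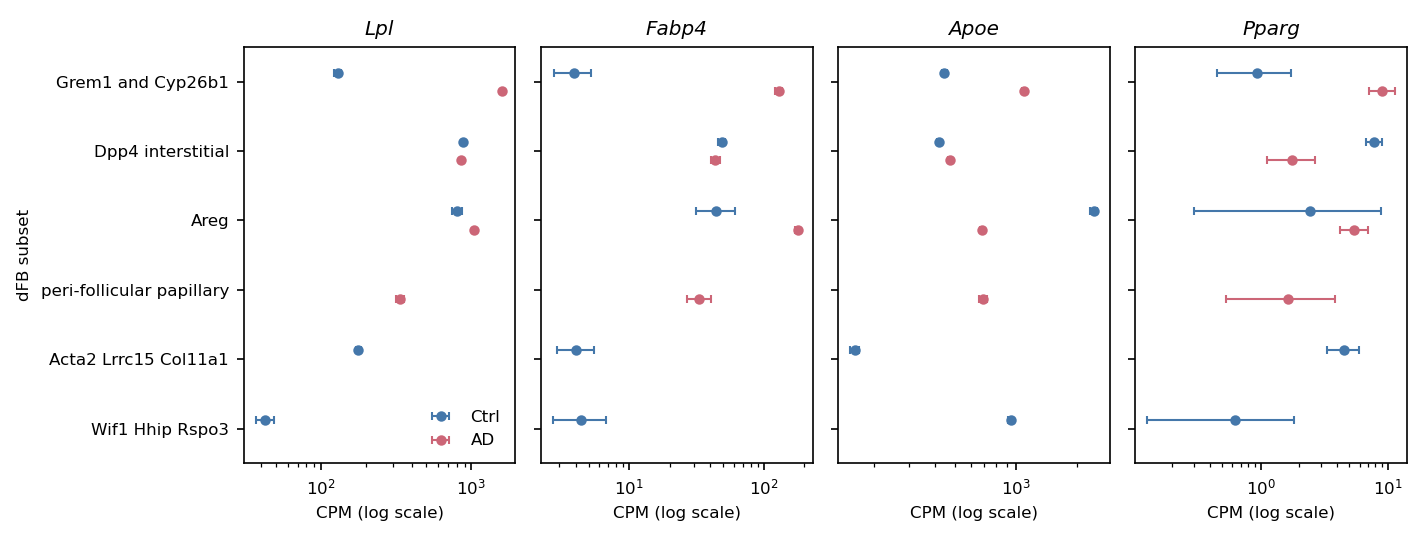
CPM (x axes, log scale) of 4 of the genes in the named dFB subsets (y axis) in Ctrl and AD, with 95% Poisson intervals. For *Lpl* the Ctrl and AD points of the *Grem1* and *Cyp26b1* subset lie far apart, at 130 and 1597 CPM, and those of the *Dpp4* subset nearly coincide.

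Blood endothelial cells, 117 in Ctrl and 126 in AD, were the main site of *Fabp4* and *Cd36* in Ctrl. *Fabp4* was at 4488 CPM (4341 to 4638) in Ctrl and 5268 CPM (5143 to 5395) in AD, a log2 ratio of 0.23, and in 68.4% and 68.3% of the cells. *Cd36*, the fatty acid receptor, was lower in AD, at 887 CPM (822 to 955) in Ctrl and 376 CPM (343 to 411) in AD, a log2 ratio of -1.24, and a UMI of it was found in 65.8% and 50% of the cells. After thinning to 1000 UMIs the *Cd36* shares were 39.8% and 21.4%, and T cells had a *Cd36* UMI in under 1% of cells in both libraries. *Pparg* had 43 UMIs, 54.5 CPM (39.4 to 73.4), in Ctrl and 28 UMIs, 21.8 CPM (14.5 to 31.5), in AD, a log2 ratio of -1.28. With the mean of each cell's CPM in place of summed UMIs, the log2 ratio of *Cd36* was -0.89, within 2-fold.

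*Lpl* and *Apoe* were less settled in these cells. *Lpl* was at 43.1 in Ctrl and 117 CPM in AD, a log2 ratio of 1.43, but 2 AD cells held 83 of the 151 UMIs and without them the AD level was 55.1 CPM. *Apoe* was at 346 and 681 CPM, a log2 ratio of 0.97, and reached 2-fold under 3 of 13 other settings. *Cebpa* was at 15.2 and 14.8 CPM from 12 and 19 UMIs. *Adipoq*, *Plin1* and *Lep* had 0 UMIs in both libraries, which allows up to 3.8 in Ctrl and 2.33 CPM in AD. In all, 1 of 6 genes was higher and 2 were lower by at least 2-fold, against 5.28% and 13.6% of all genes, and the median gene of these cells had a log2 ratio of -0.19.

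Lymphatic endothelial cells (362 and 385) carried *Pparg* at the same level in both libraries, 37.3 CPM (29.6 to 46.4) in Ctrl and 39.7 CPM (32.8 to 47.6) in AD. *Lpl* was at 119 and 133 CPM, *Fabp4* at 274 and 437 CPM, *Apoe* at 420 and 307 CPM and *Cd36* at 13.4 and 10.6 CPM. *Fabp4* UMIs were concentrated, with 249 of the 1276 AD UMIs in 1 cell. *Cebpa* was the 1 gene of 6 past 2-fold, from 8 UMIs (3.68 CPM) to 31 UMIs (10.6 CPM), and 0 were lower, against 3.69% of all genes higher and 7.97% lower. It was no longer counted under 6 other settings, and its log2 ratio of 1.31 fell to as little as 0.21. Pericytes and vascular smooth muscle cells, which wrap the vessels, had *Fabp4* at 1725 in Ctrl and 2677 CPM in AD and *Cd36* at 72.5 and 14.6 CPM, so *Cd36* was lower in AD in both blood endothelium and mural cells.

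Macrophages, 884 in Ctrl and 331 in AD, were high in *Apoe*. Their *Apoe* level was 3961 CPM (3906 to 4016) in Ctrl and 5384 CPM (5295 to 5474) in AD, in 67.1% and 77.6% of the cells. *Lpl* was at 238 and 215 CPM, *Cd36* at 124 and 91.2 CPM and *Cebpa* at 30.5 and 28.3 CPM, each within 2-fold. *Fabp4* was at 8.92 CPM (45 UMIs) in Ctrl and 43.5 CPM (112 UMIs) in AD, a log2 ratio of 2.16, and 21 of the 112 AD UMIs were those of 1 cell. Of 5 genes, this was the 1 past 2-fold in the higher direction, with 0 lower, against 5.28% and 9.47% of all genes. RNA matching adipocytes, blood endothelium and pericytes was also taken off, with results below 0 set to 0. Both *Fabp4* levels then came to 0, so that alternative gives no ratio to compare.

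The macrophage levels were averages over unlike clusters. Cluster 12, led by *Cxcl2*, *Ccl4* and *Cd74* and carrying *C1qa*, had *Apoe* at 10656 CPM in its 421 Ctrl cells and 8147 CPM in its 220 AD cells, whereas cluster 15, led by *Cd74* and *H2-Aa*, had it at 164 and 261 CPM in 463 and 111 cells. Within cluster 12 *Apoe* was thus lower in AD, although it was higher over all macrophages, and cluster 12 made up more of the AD macrophages. *Lpl* was at 348 and 155 CPM and *Cd36* at 281 and 128 CPM in cluster 12, both lower in AD by more than 2-fold, while in cluster 15 *Lpl* was at 176 and 324 CPM and *Cd36* at 35.4 and 23.3 CPM. The shares of all genes past 2-fold within these clusters were not measured.

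**Figure D5:**
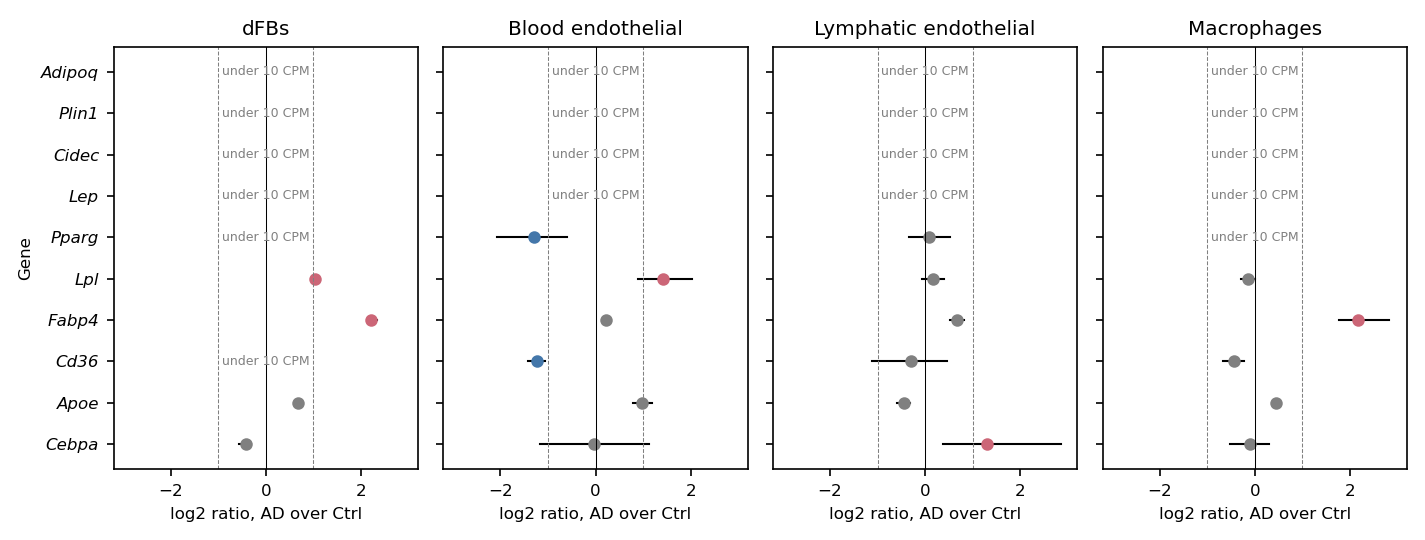
Log2 ratio of AD over Ctrl (x axes, 1 CPM added; bars are 95% intervals of the split of UMIs) for the 10 genes (y axes) in 4 cell classes, with dashed lines at 2-fold. *Fabp4* lies beyond 2-fold in dFBs (2.20) and macrophages (2.16), and *Cd36* lies below it in blood endothelial cells (-1.24).

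Ordering the classes by level placed each gene. *Adipoq*, *Cidec*, *Plin1* and *Lep* had adipocytes at the top in AD by intervals that did not overlap with the next class. *Fabp4* ran in AD from adipocytes (8106 CPM) through blood endothelium (5268 CPM) and pericytes (2677 CPM) to basophils (1210 CPM, with 342 of 523 UMIs in 1 cell), lymphatic endothelium (437 CPM) and dFBs (109 CPM), and no neighbouring intervals overlapped. *Cd36* in AD did not differ beyond counting error between adipocytes (414 CPM, 388 to 441) and blood endothelium (376 CPM, 343 to 411), which differs from Ctrl, where blood endothelium at 887 CPM led macrophages at 124 CPM. *Pparg* led in AD adipocytes (203 CPM), and the next 5 classes had intervals that overlapped from one to the next, between 39.7 and 21.4 CPM. *Apoe* was highest in AD adipocytes (9482 CPM), then keratinocytes (8676 CPM) and macrophages. *Cebpa* was highest in AD basophils, at 217 CPM (176 to 266) in 51.5% of 66 cells, above keratinocytes (93.0 CPM) and adipocytes (82.5 CPM), whose intervals overlapped.

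The genes with profiles most like those of *Adipoq*, *Fabp4* and *Apoe* were found over 25 classes of at least 30 cells, among 8408 genes, by Pearson correlation of log2 CPM with 10 added. The classes share 2 libraries and differ in depth, so these are descriptions. For *Adipoq* they were *Gm48199* (r = 0.991), *Cidec*, *Apoc4*, *Retn* and *Ankef1*, all highest in AD adipocytes. *Timp4* (0.914), *Epas1*, *Adamts4*, *Tspan12* and *Fzd4* were nearest to *Fabp4*. *Plin2* (0.794), encoding a droplet protein found in many cells, *Ctsd*, *Arl8b*, *Frrs1* and *Slc31a1* were nearest to *Apoe*.

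A list of 60 other lipid genes set the 10 genes in their pathway. In dFBs 45 of the 60 reached 10 CPM, 7 were higher and 8 lower in AD by at least 2-fold, against 7.03% and 13.3% of all genes, and their median log2 ratio was 0.07, against -0.09 over all genes. Apolipoprotein D (*Apod*) was at 1017 and 6101 CPM, the triglyceride lipase gene *Pnpla2* at 20.3 and 107 CPM, *Cebpd* at 731 and 2762 CPM and *Plin2* at 54.3 and 175 CPM. The phospholipid transfer protein gene *Pltp* (61.3 and 11.5 CPM), the desaturase gene *Scd2* (201 and 72.9 CPM), the leptin receptor gene *Lepr* (217 and 79.3 CPM), the monoglyceride lipase gene *Mgll* (69.9 and 26.3 CPM) and the fatty acid carrier gene *Fabp5* (69.9 and 28.2 CPM) were lower. Lipid synthesis genes had 0 of 10 higher and 2 lower there, read against the same shares.

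The list was counted in vessels and macrophages too. Blood endothelial cells had 8 of 47 list genes higher and 9 lower, against 5.28% and 13.6% of all genes. Lymphatic endothelial cells had 5 and 7 of 45, against 3.69% and 7.97%, and macrophages 8 and 7 of 42, against 5.28% and 9.47%. *Apod* was higher by at least 2-fold in both kinds of endothelium (62.1 and 361 CPM in blood, 175 and 1019 CPM in lymphatic), and *Pnpla2* as well. *Angptl4*, whose protein inhibits LPL, was at 120 and 40.5 CPM in blood endothelium, and *Gpihbp1*, whose protein holds LPL on capillaries, was at 111 and 53.8 CPM in lymphatic endothelial cells. In macrophages *Hilpda*, a droplet gene, was at 20.6 in Ctrl and 187 CPM in AD, *Fabp5* at 96.9 and 313 CPM and *Lrp1* at 131 and 319 CPM, while *Pltp* was at 452 and 197 CPM.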

How the data were processed

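For each library the authors deposited a matrix of raw counts, the UMIs that Cell Ranger counted per gene and barcode (mm10), with no normalization. The submitters' processing notes name Cell Ranger 3.1.0 and Seurat 5.0, and other sources name other Cell Ranger versions. Barcodes were already called as cells. A filter on detected genes (200 to 6000) and mitochondrial UMIs (10% or less) was applied, and cells were clustered with scanpy 1.11.5 (Python 3.11.15, leidenalg 0.10.2, numpy 2.4.6, scipy 1.17.1, pandas 2.3.3): counts scaled to 10000 per cell, log-transformed, 2000 variable genes without the 10 genes and 60 lipid genes, 30 principal components, 20 neighbours, Leiden resolution 1, seed 0. dFBs were clustered again.

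A cluster took a cell type's name when at least 3 of that type's markers were each found in 10% of its cells and had a CPM, with 10 added, at least 2 times a base. The base was the 10th percentile over clusters (25th for dFB subsets, within a library), and 10 leading genes, ranked with 50 CPM added, could not hold more markers of another type. This percentile and the 50 CPM were chosen after marker tables and levels of the 10 genes had been seen. The 10 genes, the lists and the rule for named genes were chosen with earlier results of these data known. That rule names the 10 genes, up to 5 lipid genes per direction past 2-fold with at least 50 CPM, and the 5 most similar profiles of 4 genes, of which those for *Pparg* are not reported here.

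Ratios are log2 of CPM with 1 added, counted as past 2-fold among genes that reached 10 CPM in Ctrl or AD. A gene that reached 10 CPM in only 1 library could be counted only as higher in that library. The same holds for the shares over all genes. With 1 library per group no test was run. The limit for a count of 0 is 3 UMIs. The ratio calculation was tested on simulated counts, drawn from class means with Poisson error only. These hold no spread between cells or libraries, so the test says nothing about either. Of the gene identifiers, 32475 are in GENCODE M21. Total depth was 105195951 UMIs in Ctrl and 61645227 in AD after filtering.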

Additional observations from a re-analysis of the deposited data

Results flagged for a closer look

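Several of the 10 genes differed between Ctrl and AD in opposite directions in different cell classes, or passed 2-fold in some classes and not in others. The differences between classes were not tested, since each condition had 1 library. Many genes of the smaller classes passed 2-fold. Over all genes 19.6% were higher and 19.8% lower in melanocytes, 14.8% and 25.1% in mast cells, and 19.7% and 15.8% in dendritic cells. The shares were 8.35% and 16.4% in Schwann cells and 2.69% and 14.7% in T cells. They were 5.72% and 11.6% in keratinocytes and 6.20% and 10.7% in pericytes and vascular smooth muscle cells.

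*Fabp4* was higher in AD in mast cells (log2 ratio 3.36), melanocytes (2.88), dFBs (2.20), macrophages (2.16), T cells (2.03), dendritic cells (1.95) and keratinocytes (1.49), and lower in Schwann cells (-1.56). Its level in Ctrl was under 60 CPM in each of these classes, and several ratios rest on few UMIs, with 1 in Ctrl and 6 in AD in mast cells, 3 and 16 in melanocytes, 6 and 36 in T cells, and 1 and 9 in dendritic cells, where the interval (-0.66 to 7.65) includes 0. In macrophages both levels came to 0 once RNA matching adipocytes, blood endothelium and pericytes was taken off, which leaves no ratio to compare. In AD keratinocytes RNA matching adipocytes came to 119% of the measured level. In T cells RNA matching blood endothelium was at most 24.8 (Ctrl) and 29.4 CPM (AD), upper limits that lie above the 3.14 and 15.9 CPM measured.

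*Lpl* was higher in melanocytes (2.20), mast cells (2.10), blood endothelial cells (1.43) and dFBs (1.03), and lower in T cells (-1.62). Its UMIs were few in melanocytes (24 in Ctrl and 67 in AD) and mast cells (13 and 26). In Ctrl T cells 2 cells held 27 of the 92 *Lpl* UMIs.

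*Apoe* was higher in keratinocytes (1.44) and lower in T cells (-1.58), where the median gene also had a log2 ratio of -0.24. In Ctrl T cells 8 of 424 cells held 313 of the 483 *Apoe* UMIs, and without cells of 10 or more UMIs the levels were 94.6 in Ctrl and 57.3 CPM in AD, within 2-fold. Within dFBs *Apoe* was higher in AD in the *Grem1* and *Cyp26b1* subset (1.29) and lower in the Areg subset (-1.82). In both subsets most AD cells lay in a sub-cluster without Ctrl cells. *Cebpa* was higher in lymphatic endothelial cells (1.31), from 8 and 31 UMIs, and lower in pericytes and vascular smooth muscle cells (-1.13), from 21 and 10 UMIs.

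Barcodes removed for over 10% mitochondrial UMIs carried adipocyte transcripts in AD. *Adipoq* was at 242 CPM (207 UMIs) in the 315 AD barcodes of this kind and at 6.44 CPM in the 690 Ctrl barcodes, and 11 of the AD barcodes had 10 or more UMIs of *Adipoq*, *Plin1* and *Cidec* together. The adipocyte markers there amounted to 37.4% of their level in kept adipocytes in AD and to 0.945% in Ctrl.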

How the results depend on the processing

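No paired analysis was possible because each group has 1 library and no test was run. Beside the alternatives planned, others were chosen after seeing the data: 2 naming rules, removal of the highest 6% of Scrublet scores in each library, removal of RNA matching vessels, and dFBs without the subsets of Ctrl. The count of genes past 2-fold in blood endothelial cells stayed within 1.5 times 3 under every alternative run. In lymphatic endothelial cells the count of 1 became 0 with all deposited barcodes, with Scrublet doublets left out, at resolution 2, with the lipid genes put back among the variable genes, with a floor of 50 CPM and with 5 CPM added, 3 with each library clustered alone, with the mean of each cell's CPM and with no floor, and 2 with median-of-ratios scaling and with adipocyte RNA taken off. In dFBs 2 became 4 with no floor and 1 without the subsets of Ctrl. In macrophages 1 became 2 with no floor, and 0 with a floor of 50 CPM and with adipocyte, endothelial and pericyte RNA taken off. *Adipoq* in AD adipocytes, 543 CPM, was 440 CPM as a mean of each cell's CPM and 581 CPM without the highest 6% of Scrublet scores. The adipocyte part of UMIs in AD T cells, 0.0439%, was 0 at resolution 0.5. No ratio past 2-fold changed sign under the alternatives run. Of the single ratios under alternatives, 208 moved by less than the counting interval allows and 78 by more. Thinning to 1000 UMIs, which leaves fewer UMIs per cell, moved 66 shares of cells beyond their interval and left 24 within it. The *Fabp4* log2 ratio in dFBs lay between 1.81 and 5.36 (past 2-fold in 15 of 15 alternatives). The 5.36 came from taking off adipocyte, endothelial and pericyte RNA. The amounts taken off exceeded the Ctrl level, which was set to 0, so that alternative, though counted, gives no measured ratio. In dFBs the *Lpl* log2 ratio lay between 0.67 and 1.32 (14 of 15). In blood endothelial cells that of *Pparg* lay between -1.33 and -1.10 (13 of 13) and that of *Cd36* between -1.52 and -0.89 (12 of 13). *Lpl* in blood endothelial cells fell to 0.13 without the highest 6% of Scrublet scores. No value for genes past 2-fold in adipocytes was possible, because Ctrl had 0 to 4 such cells. Depth limits genes with few UMIs, such as *Lep* and *Plin1*, and free RNA was estimated from markers that some other cells share.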

Other observations

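Keratinocyte cluster 22 (189 Ctrl and 129 AD cells), led by *Elovl6*, *Fabp5*, *Scd1* and *Apoe*, genes of fatty acid synthesis and transport among them, carried several of the 10 genes. *Apoe* was at 12927 CPM in its Ctrl cells and 14652 CPM in its AD cells. *Pparg* was at 155 CPM (142 to 169) in Ctrl and 48.9 CPM (40.4 to 58.7) in AD, *Lpl* at 455 and 162 CPM, *Cd36* at 76.5 and 10.2 CPM and *Cebpa* at 246 and 141 CPM. The first 3 of these were lower in AD by more than 2-fold, and *Cebpa* by less. The share of all genes past 2-fold in this cluster was not measured, so these differences have no background to be read against. *Fabp4* was low in both, at 2.21 and 14.9 CPM.

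Over all keratinocytes *Apoe* was at 3200 in Ctrl and 8676 CPM in AD, and in cluster 22 alone it differed little. Cluster 22 made up 129 of 412 AD keratinocytes and 189 of 2255 Ctrl keratinocytes. *Apoe* levels in the keratinocytes outside it are not given, and how much of the difference goes with this share was not tested.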
